A study of Lactuca sativa with 6 samples.

Results

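Leaves of lettuce seedlings (Lactuca sativa) given an extract of the green microalga Chlorella vulgaris (LsCv) were compared with leaves of untreated seedlings (LsCK), over every assembled gene cluster with enough counts for a test. The table of the series holds 39253 clusters in 6 libraries, and 28157 clusters were tested, the comparison resting on 4 libraries, LsCv replicates 1 and 2 and LsCK replicates 1 and 2. The remaining 11096 clusters did not pass the filter on low counts, among them 445 without a count in these 4 libraries and 1943 with counts in LsCK replicate 2 only. LsCv seedlings were irrigated once with 500 mL of Hoagland solution, a mineral nutrient solution, that carried the extract at 1 mg of organic carbon per litre, and LsCK seedlings received 500 mL of Hoagland solution alone. All seedlings came from a nursery, stood 10 to a box on pumice for 6 days of acclimatization and were sampled 4 days after the treatment. The growth notes speak of 5 biological replicates for treatments, but no label ties a library to a box, so p-values measure only the spread between these libraries, which may be technical. Another group, seedlings given an extract of Scenedesmus quadricauda (LsSq, 2 libraries), entered the fit for its share in the estimate of the spread. The comparison asks which leaf transcripts stand at another level after the Chlorella extract.

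Microalgal extracts are used as biostimulants, preparations applied in small amounts that affect plant growth without acting as a fertilizer. Such extracts can hold amino acids, polysaccharides and hormone-like compounds. In a leaf, hormone and peptide signals are read by membrane receptors, many of them receptor kinases, and passed on to transcription factors, while cell wall proteins, cuticle enzymes and immune receptors make up the surface that meets the environment. The clusters come from an assembly of the reads without a genome, and a cluster carries a gene name here only where the tables of the study give one.

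The total expected count was 32433696 and 29085178 in LsCv replicates 1 and 2, against 35184764 and 26408716 in LsCK replicates 1 and 2. The 10 most abundant clusters took 6.79% and 3.54% of the LsCv libraries, against 4.33% and 4.51% of the LsCK libraries. LsCK replicate 2 stood apart from the other libraries. Clusters with counts in a single library numbered 1943 in LsCK replicate 2, against 196 in LsCK replicate 1 and 120 and 248 in the LsCv libraries. Descriptions were held for 1214 clusters only, those of the study's list. Of these, 619 were taken as described by an animal protein. Their protein came from a genus outside a list of non-animal genera, and no sequence of Lactuca, Helianthus, Cynara or Artemisia was in the description. Their summed count was 76.5 and 115 in LsCv, against 126 and 31135 in LsCK replicates 1 and 2. Of these 619, 3 were tested, and the part of this signal in the results was not tested. The main results are therefore also set against each LsCK library alone. The tables name no photosynthesis gene among the clusters described by a lettuce sequence, so the leaf label was not checked against markers. The cluster that served the study as a qRT-PCR reference, an rRNA methyltransferase, had 19.1 and 20.4 CPM (counts per 1000000 counts of the library, scaled by TMM) in LsCv against 16.4 and 15.7 CPM in LsCK, a log2 fold change of 0.30 (SE 0.25).

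After Benjamini-Hochberg adjustment 0 clusters (0%) passed the threshold of 0.05 in the edgeR fit, where the smallest adjusted p was 0.168. Unadjusted, the p was under 0.05 in 2459 clusters (8.73%), of which 672 (2.39%) stood higher in LsCv and 1787 (6.35%) stood lower. With the 6 libraries in the fit DESeq2 called 437 clusters at an adjusted p of 0.05 (1.53% of those with an adjusted p), 68 higher and 369 lower in LsCv. With the LsCv and LsCK libraries alone it called 225 (0.796%), 18 higher and 207 lower. Of these calls 334 and 126 were among the clusters tested with edgeR. Another 61 and 57 had counts in LsCK replicate 2 only, so that they could only be called lower in LsCv. The libraries are of whole leaves, in which fewer cells of a type and less RNA per cell cannot be told apart.

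The size of the change depended on the level of the cluster. The median absolute log2 fold change was 0.89 in the 5483 clusters with a mean under 1 CPM over the libraries, 0.54 in the 9054 clusters at 1 to 10 CPM, 0.34 in the 11522 clusters at 10 to 100 CPM, 0.34 in the 2041 clusters at 100 to 1000 CPM and 0.57 in the 57 clusters at 1000 CPM and over. Replicates of the same group differed by about as much. In the same order of levels, the median absolute log2 ratio between the LsCv libraries was 1.07, 0.64, 0.41, 0.46 and 0.83, and between the LsCK libraries it was 0.84, 0.62, 0.48, 0.58 and 0.45. In each of the 5 levels the median change was thus smaller than the median ratio between the LsCv libraries, and in the 3 levels from 1 to 1000 CPM it was also smaller than that between the LsCK libraries. A fold change averages over 2 libraries a side while a replicate ratio does not, so the lines in the plot of size by level are set side by side as a description.

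**Figure D1:**
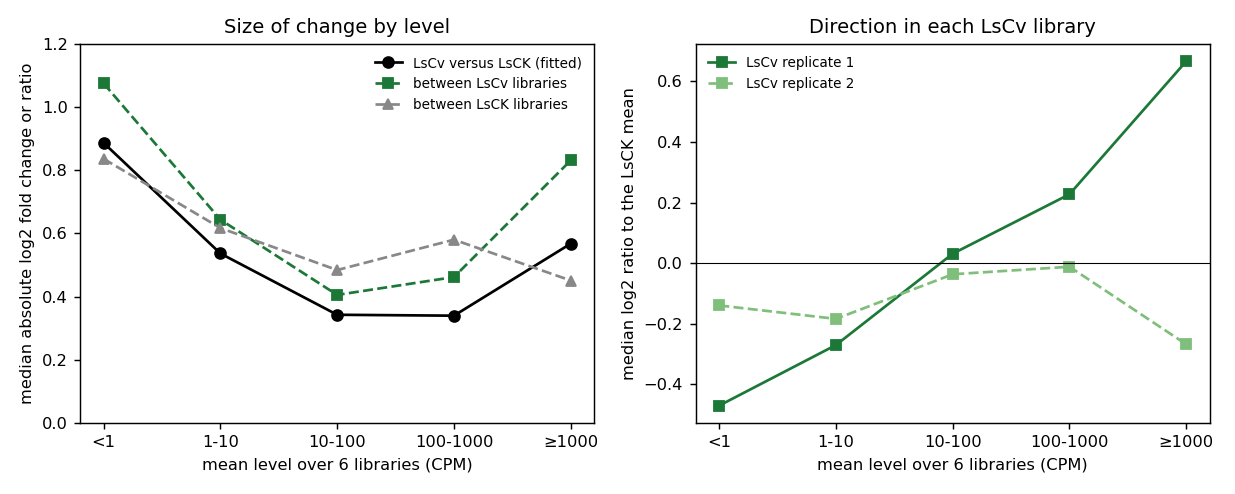
Left, median absolute log2 fold change of LsCv versus LsCK (circles) and median absolute log2 ratio between the libraries of LsCv (squares) and of LsCK (triangles), by mean level in CPM; the change follows the replicate spread down to 0.34 at 10 to 1000 CPM. Right, median log2 ratio of each LsCv library to the LsCK mean by the same levels; LsCv replicate 1 runs between -0.47 and 0.67 from the lowest level to the highest, and LsCv replicate 2 stays between -0.27 and -0.01.

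Direction also went with level. Of the clusters with an unadjusted p under 0.05, 15.6% were higher in LsCv under 1 CPM (53 higher, 287 lower), 20.0% at 1 to 10 CPM (180 higher, 719 lower), 33.9% at 10 to 100 CPM (369 higher, 721 lower) and 53.5% at 100 to 1000 CPM (68 higher, 59 lower). At 1000 CPM and over 2 were higher and 1 lower. Over all tested clusters of a level, the median log2 fold change was -0.15, -0.17, 0.03, 0.14 and 0.54 from the lowest level to the highest. Fold changes of at least 1 on the log2 scale were found for 944 higher and 1532 lower clusters under 1 CPM, 17.2% and 27.9% of that level. At 100 to 1000 CPM they numbered 167 higher and 62 lower, 8.18% and 3.04% of the level. The lean to lower values among weakly expressed clusters and to higher values among strongly expressed ones was not equal in the LsCv libraries. Set against the LsCK mean, LsCv replicate 1 had median log2 ratios of -0.47, -0.27, 0.03, 0.23 and 0.67 by level, and LsCv replicate 2 had -0.14, -0.18, -0.04, -0.01 and -0.27. Without LsCv replicate 1 the median of the clusters at 1000 CPM and over was -0.24. Without LsCK replicate 2 the medians under 1 CPM and at 1 to 10 CPM were -0.02 and -0.04, in place of -0.15 and -0.17. Without scaling factors the median of all tested clusters was -0.19 in place of -0.03, the medians at 10 to 100 and at 100 to 1000 CPM were -0.13 and -0.03, and 16.0% in place of 27.3% of the clusters under an unadjusted p of 0.05 were higher.

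The LsCK libraries gave different accounts of the extract. Set against LsCK replicate 1 alone, 1327 clusters (4.71%) had an unadjusted p under 0.05 in edgeR's quasi-likelihood test, 451 higher and 876 lower in LsCv. Against LsCK replicate 2 alone the number was 5394 (19.2%), 2715 higher and 2679 lower. An adjusted p of 0.05 was reached by 0 clusters in either fit, with a smallest value of 0.322 and 0.0662, and in both the lone library is assumed to vary like the other groups. Against LsCK replicate 1 the share under that unadjusted p was no more than the 0.05 that would fall there without any change. No direction is therefore read from it. Against LsCK replicate 2 higher and lower clusters were about as many. The median absolute log2 fold change was 0.39 against LsCK replicate 1 and 0.67 against LsCK replicate 2. In 66.9% of all tested clusters the LsCv mean was nearer to LsCK replicate 1. The same was true of 514 of the 672 higher and 1414 of the 1787 lower clusters with an unadjusted p under 0.05. Of the 672, 248 were 2-fold higher than LsCK replicate 2 only and 37 than LsCK replicate 1 only. Of the 1787, 674 were 2-fold lower than LsCK replicate 2 only and 73 than LsCK replicate 1 only. The fits against each LsCK library share the LsCv libraries. They gave the same direction at an unadjusted p under 0.05 in 653 clusters (2.32%), 152 higher and 501 lower, and opposite directions in 24. Most of the 152 and 501 were at 10 to 100 CPM (105 and 212) or 1 to 10 CPM (27 and 197).

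A change was said to hold where both LsCv libraries lay on one side of both LsCK libraries and the LsCv mean was at least 2-fold from each LsCK library in the same direction (0.1 CPM added to each value). LsCv and LsCK libraries lay apart without overlap in 10292 clusters (36.6%), 4467 higher (15.9%) and 5825 lower (20.7%) in LsCv. Under exact two-sided permutation of 4 libraries such a lack of overlap has a probability of 0.333. The share of 36.6% is near that, so it is not read as a response to the extract. The change held in 1958 clusters (6.95%), 607 higher (2.16%) and 1351 lower (4.8%). By level, 301 higher and 588 lower clusters held under 1 CPM (5.49% and 10.7% of the level), 185 and 572 at 1 to 10 CPM (2.04% and 6.32%), 107 and 176 at 10 to 100 CPM (0.929% and 1.53%), and 14 and 14 at 100 to 1000 CPM (0.686% each). At 1000 CPM and over, 0 higher and 1 lower cluster held. Changes that held were therefore mostly of weakly expressed clusters, with a median level of 1.02 CPM for the higher and 1.34 CPM for the lower ones. With 1 CPM in place of 0.1 CPM added to each value, 199 higher and 379 lower clusters held. Among the clusters with an unadjusted p under 0.05, the change held in 278 of 672 higher (41.4%) and 883 of 1787 lower clusters (49.4%). The rule for holding and the p-value use the same libraries, so these shares are no second line of evidence.

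**Figure D2:**
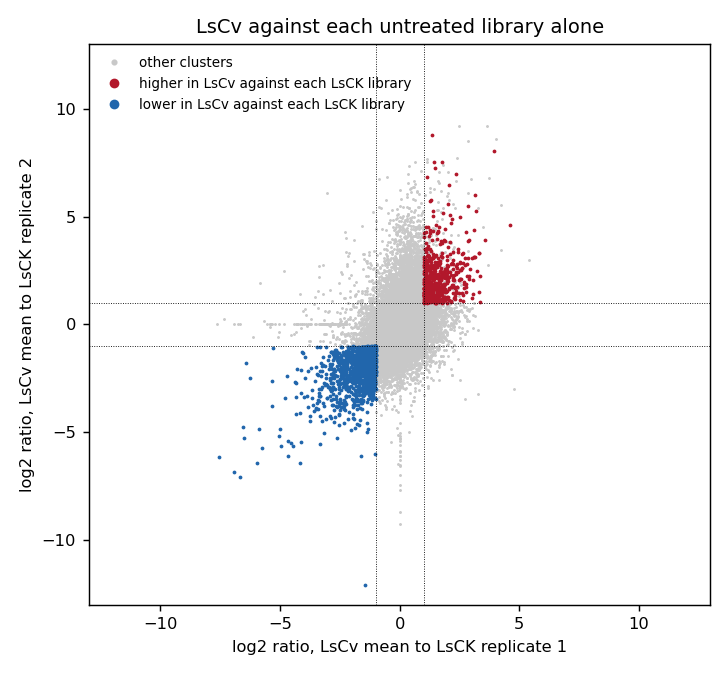
Log2 ratio of the LsCv mean to LsCK replicate 1 (horizontal) and to LsCK replicate 2 (vertical), 1 point per tested cluster, with dotted lines at a log2 ratio of -1 and 1. The 607 clusters in which a higher value held and the 1351 in which a lower value held are coloured, and the cloud is wider along the axis of LsCK replicate 2.

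The clusters with the smallest p-values carry no name in the tables and were lower in LsCv. Cluster-15809.5222 had 0 and 0 counts in LsCv, against 352 and 380 in LsCK, and was at least 111-fold lower in LsCv when 3 counts per LsCv library are taken as the limit of detection. Cluster-12869.0 had 0 and 0 counts in LsCv, against 427 and 323 in LsCK, at least 112-fold lower. In both, the LsCK libraries stood close to each other and the adjusted p was 0.168 in edgeR's quasi-likelihood test. DESeq2 gave adjusted p of 3.75e-09 and 6.03e-09 with the 6 libraries in the fit and of 3.45e-08 for each on the LsCv and LsCK libraries. Singled out after the values had been seen, 20 clusters (0.071%) had 3 counts or fewer in each LsCv library and at least 1 CPM in each LsCK library, 13 of them with 0 counts in LsCv. The reverse, 3 counts or fewer in each LsCK library and at least 1 CPM in each LsCv library, was found in 0 clusters. Within a group, a looser pattern was counted, at least 1 CPM in a replicate and 3 counts or fewer in the other. Of the 28157 tested clusters, 117 were present in LsCv replicate 1 and not replicate 2 and 198 the other way round, against 178 and 62 in LsCK. That pattern needs a single library at each end, so its counts are not on one scale with the 20. Of the 20 clusters, 10 had at least 1 CPM in both LsSq libraries and 3 had 3 counts or fewer in both. At least these 3 passed the filter on low counts through LsCK alone, so they could only come out lower in LsCv. Of the 20, 0 are among the 1214 clusters held from the list of clusters called changed by both extracts. Only 291 of the 28157 tested clusters are in that list, so the 0 carries little information.

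Among the higher clusters, the pair with the smallest p was a named MYB factor, given below with the named clusters, and the unnamed Cluster-15809.9806. The unnamed cluster had 59.3 and 53.0 CPM in LsCv, against 17.1 and 17.5 CPM in LsCK. The libraries of each group stood close together, and the log2 fold change was 1.70 (SE 0.25, adjusted p 0.512 in edgeR's test, and in DESeq2 1.96e-06 with the 6 libraries in the fit and 0.00408 on the LsCv and LsCK libraries).

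A lettuce sequence is given in the descriptions of 291 clusters of the 1214 listed as changed by both extracts, and 269 of the 291 were tested. The list was drawn up from these same libraries, so its counts are not independent evidence of a direction. Of the 269, 23 were higher and 45 lower at an unadjusted p under 0.05 (8.55% and 16.7%, against 2.39% and 6.35% of all tested clusters). The change held in 16 higher and 18 lower clusters (5.95% and 6.69%, against 2.16% and 4.8%), of which 12 and 12 carry a protein name. The LsCv mean was nearer to LsCK replicate 1 than to LsCK replicate 2 in 266 of the 269 (98.9%, against 66.9% of all tested clusters). At an unadjusted p under 0.05, 231 of the 269 differed from LsCK replicate 2 alone (85.9%, against 19.2% of all tested clusters) and 18 from LsCK replicate 1 alone (6.69%, against 4.71%).

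Of the named clusters, 12 held as higher in LsCv. The transcription factor MYB10-like cluster (Cluster-15809.6665) had 10.2 and 17.5 CPM in LsCv, against 1.74 and 0.836 CPM in LsCK. MYB10 proteins switch on anthocyanin genes in apple and strawberry. The log2 fold change was 3.42 (SE 0.49, adjusted p 0.50 in edgeR's test), and DESeq2 gave an adjusted p of 2.52e-07 with the 6 libraries in the fit and of 0.000254 on the LsCv and LsCK libraries. The MLO-like protein 6 cluster (Cluster-15809.13887) had 31.0 and 25.4 CPM in LsCv, against 3.08 and 0.348 CPM in LsCK. MLO proteins are membrane proteins, some of which are needed for powdery mildew fungi to enter cells in barley and Arabidopsis. The LsCK libraries differed from each other here, yet the log2 ratio of the LsCv mean was 3.15 to LsCK replicate 1 and 5.98 to LsCK replicate 2. The log2 fold change was 4.02 (SE 0.87, adjusted p 0.533 in edgeR's test). For this cluster DESeq2 gave an adjusted p of 0.000189 with the 6 libraries in the fit and of 0.00109 on the LsCv and LsCK libraries.

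Lectins and a receptor-like protein were also among the 12. Cluster-15809.8763, described as horcolin-like, had 151 and 162 CPM in LsCv, against 72.8 and 6.69 CPM in LsCK. Cluster-15809.7313, described by the same lettuce locus (LOC111890979), had 70.1 and 49.8 CPM in LsCv, against 22.4 and 1.46 CPM in LsCK. Horcolin is a mannose-binding lectin of barley. Reads of these clusters were divided between clusters in the counting. The pair shares 1 locus, although the 12 count its clusters separately. In both, LsCK replicate 2 was far below LsCK replicate 1. Low counts set the values of receptor-like protein 12 (Cluster-5533.0, 0.479 and 0.799 CPM in LsCv, against 0.20 and 0 CPM in LsCK), a receptor type without a kinase domain. The E3 SUMO-protein ligase SIZ1-like cluster (Cluster-8355.0), an enzyme that attaches the small protein SUMO to targets, had 1.62 and 0.965 CPM in LsCv, against 0.571 and 0.139 CPM in LsCK.

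The chlorophyllase-2-like cluster (Cluster-15809.933), an enzyme that removes the phytol tail of chlorophyll, had 6.20 and 7.39 CPM in LsCv, against 2.91 and 1.01 CPM in LsCK (log2 fold change 1.79, SE 0.57). The purple acid phosphatase-like cluster (Cluster-15809.2501), of a family that frees phosphate from organic compounds, had 32.0 and 19.7 CPM in LsCv, against 12.8 and 8.12 CPM in LsCK (log2 fold change 1.31, SE 0.39). Cytochrome P450 71A8-like (Cluster-15809.3563), a monooxygenase, had 5.42 and 4.86 CPM in LsCv, against 2.43 and 1.74 CPM in LsCK. UDP-glycosyltransferase 89B2-like (Cluster-10880.0), which transfers sugars to small molecules, had 4.28 and 10.8 CPM in LsCv, against 2.51 and 2.47 CPM in LsCK. Here the LsCK libraries were alike and the LsCv libraries were not. The BAHD acyltransferase DCR-like cluster (Cluster-15809.1332), whose Arabidopsis namesake is needed for cutin, had 35.1 and 82.5 CPM in LsCv, against 23.7 and 0.976 CPM in LsCK. The ethylene-responsive transcription factor 12-like cluster (Cluster-4512.0) had 3.91 and 6.82 CPM in LsCv, against 2.57 and 1.88 CPM in LsCK. The adjusted p in edgeR's test was 0.533 to 0.624 for the 10 clusters named in these paragraphs on lectins, receptors and enzymes.

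**Figure D3:**
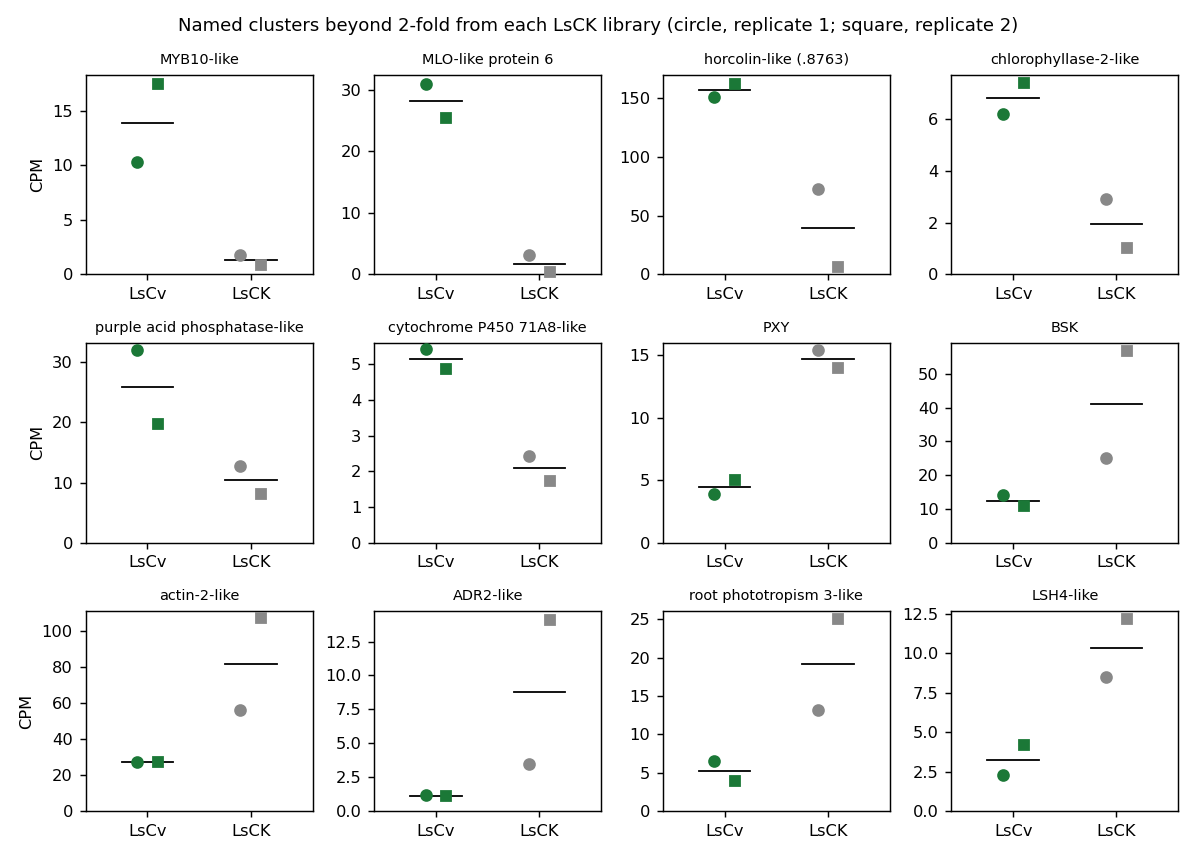
CPM in each LsCv library (left in each panel) and each LsCK library (right) for 12 named clusters in which the change held; circles are replicate 1, squares replicate 2 and bars the mean. In the first 6 panels both LsCv libraries lie above both LsCK libraries, as for MLO-like protein 6 with 31.0 and 25.4 against 3.08 and 0.348 CPM, and in the last 6 both lie below, as for PXY with 3.87 and 4.99 against 15.4 and 14.0 CPM.

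Among the named clusters that held as lower in LsCv, PXY (Cluster-15809.1007), the receptor kinase that in Arabidopsis reads a CLE peptide in the vascular cambium, had 3.87 and 4.99 CPM in LsCv, against 15.4 and 14.0 CPM in LsCK. Replicates were alike in each group, the log2 fold change was -1.73 (SE 0.33, adjusted p 0.533 in edgeR's test), and the unadjusted p was 0.00310 against LsCK replicate 1 alone and 0.00509 against LsCK replicate 2 alone in the same test. DESeq2 gave PXY an adjusted p of 0.0023 with the 6 libraries in the fit and of 0.0887 on the LsCv and LsCK libraries, so the call was lost there. BSK (Cluster-15809.3701), a kinase that passes on the brassinosteroid signal, had 14.0 and 10.9 CPM in LsCv, against 25.1 and 56.9 CPM in LsCK (log2 fold change -1.72, SE 0.43). The putative receptor protein kinase ZmPK1 cluster (Cluster-11095.0) had 0.0738 and 0.166 CPM in LsCv, against 0.999 and 1.46 CPM in LsCK. The disease resistance protein ADR2-like cluster (Cluster-15809.9404), of the class of intracellular immune receptors, had 1.14 and 1.13 CPM in LsCv, against 3.48 and 14.1 CPM in LsCK. Its LsCv libraries were almost equal while LsCK replicate 2 was far above LsCK replicate 1.

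The actin-2-like cluster (Cluster-15809.8512), which codes for the subunit of actin filaments, had 27.0 and 27.3 CPM in LsCv, against 55.8 and 107 CPM in LsCK (log2 fold change -1.58, SE 0.41). Its adjusted p was 0.533 in edgeR's test. The glycine-rich cell wall structural protein 1.8-like cluster (Cluster-15809.11073) had 9.22 and 4.19 CPM in LsCv, against 14.1 and 56.5 CPM in LsCK. The proteoglycan 4-like cluster (Cluster-10830.0) had 0.516 and 0.899 CPM in LsCv, against 2.37 and 4.11 CPM in LsCK. In each of these 3 clusters LsCK replicate 2 was the highest library. The root phototropism protein 3-like cluster (Cluster-15809.12119), of a family that works with the blue light receptors phototropins in Arabidopsis, had 6.49 and 3.89 CPM in LsCv, against 13.2 and 25.1 CPM in LsCK. LIGHT-DEPENDENT SHORT HYPOCOTYLS 4-like (Cluster-6136.0), of a family of transcription regulators active at organ boundaries in Arabidopsis, had 2.25 and 4.16 CPM in LsCv, against 8.51 and 12.2 CPM in LsCK. Log2 fold changes were -1.88 (SE 0.44) for the phototropism cluster and -1.69 (SE 0.44) for the hypocotyl cluster.

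In the remaining named clusters that held as lower, the zinc finger BED domain-containing protein RICESLEEPER 2-like cluster (Cluster-10001.0), of a family derived from transposases in rice, had 2.95 and 4.63 CPM in LsCv, against 13.4 and 14.0 CPM in LsCK. As for PXY, replicates were alike in each group. With the 6 libraries in the fit DESeq2 also called this cluster (adjusted p 0.0196), BSK (0.046), ADR2-like (0.0218) and the phototropism cluster (0.0278). On the LsCv and LsCK libraries, DESeq2 called none of them (adjusted p 0.0911, 0.231, 0.0684 and 0.178 in the same order). Secoisolariciresinol dehydrogenase (Cluster-15809.2073), an enzyme of lignan synthesis, had 3.36 and 5.59 CPM in LsCv, against 9.28 and 16.1 CPM in LsCK. The patatin-like protein 7 cluster (Cluster-15809.1670), a lipid acyl hydrolase, had 0.959 and 3.89 CPM in LsCv, against 5.31 and 17.2 CPM in LsCK. The prolyl endopeptidase-like cluster (Cluster-5573.0), a peptidase that cuts after proline, had 0 and 0 CPM in LsCv, against 0.457 and 1.46 CPM in LsCK. This cluster was at least 9.15-fold lower in LsCv, again with 3 counts per LsCv library as the limit, which gave 4.35 against LsCK replicate 1 alone and 13.9 against LsCK replicate 2 alone. It had 0 CPM in both LsSq libraries too. It therefore passed the filter on low counts through LsCK alone and could only come out lower.

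Of the 22 clusters that the study lists under phytohormones and peptide signals, 0 were higher and 7 lower (31.8%) at an unadjusted p under 0.05 in edgeR's test, against 2.39% and 6.35% of all tested clusters. The change held in 0 higher and 5 lower clusters (22.7%), against 2.16% and 4.8% of all tested clusters. The table was drawn up from these same libraries. The median log2 fold change was -1.05, against -0.03 over all tested clusters, with medians of -0.15 to LsCK replicate 1 and -1.19 to LsCK replicate 2. Besides PXY and BSK the lower clusters that held were CKI1, IPT3 and EPF/EPFL. CKI1 (Cluster-15809.3160), a histidine kinase of the cytokinin signalling type, had 2.99 and 6.62 CPM in LsCv, against 9.76 and 39.3 CPM in LsCK. EPF/EPFL (Cluster-15809.11964), a family of secreted peptides that pattern stomata in Arabidopsis, had 0.922 and 1.27 CPM in LsCv, against 2.40 and 6.79 CPM in LsCK. IPT3 (Cluster-9839.0), of the enzymes that start cytokinin synthesis, had 0 and 0 CPM in LsCv, against 0.571 and 0.174 CPM in LsCK, at least 3.55-fold lower. That limit rests on 20 and 5 counts, and it was 5.44 against LsCK replicate 1 alone and 1.66 against LsCK replicate 2 alone. LsCK replicate 2 was the higher of the LsCK libraries for CKI1 and EPF/EPFL and the lower for IPT3.

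Auxin clusters gave no change that held, though IAA27 fell just short of the 2-fold rule. IAA27 (Cluster-8434.0), a repressor of auxin response, had 0.516 and 2.36 CPM in LsCv, against 2.97 and 25.5 CPM in LsCK. IAA17 (Cluster-5788.0), a repressor of the same family, had 1.47 and 2.63 CPM in LsCv, against 3.37 and 17.8 CPM in LsCK. In both, LsCK replicate 1 was much nearer to the LsCv libraries than to LsCK replicate 2. The log2 ratio of the LsCv mean to LsCK replicate 1 was -0.995 for IAA27 and -0.69 for IAA17. PINOID2 (Cluster-6384.0), of the kinases that direct auxin carriers, had 2.36 and 4.39 CPM in LsCv, against 5.63 and 9.41 CPM in LsCK (log2 fold change -1.15, SE 0.46). IAA27, IAA17 and PINOID2 were among the 7 lower clusters of the phytohormone list. Their unadjusted p in edgeR's test was 0.0225, 0.0223 and 0.0428, and their adjusted p was 0.533, 0.533 and 0.561. The flavin monooxygenases YUCCA10 (Cluster-14797.0) and YUCCA5 (Cluster-8784.0), which make auxin, had log2 fold changes of 1.12 (SE 0.85) and 1.41 (SE 0.90). Standard errors were near or above the size of the change for the cytokinin clusters LOG3 (-0.53, SE 0.47), cytokinin hydroxylase (0.34, SE 0.64) and B-type ARR (0.95, SE 0.88). ZOG (Cluster-3690.0), which stores cytokinin as a glucoside, had 11.8 and 22.0 CPM in LsCv, against 11.1 and 3.8 CPM in LsCK, so that LsCv stood close to LsCK replicate 1 in its lower library.

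Receptors and their peptides varied in direction. THESEUS (Cluster-15809.12001) and FERONIA (Cluster-18385.0), kinases that sense the cell wall, had log2 fold changes of -1.69 (SE 0.83) and 1.34 (SE 0.94). The THESEUS cluster had 15.3 and 7.92 CPM in LsCv, against 9.42 and 65.4 CPM in LsCK, and its log2 fold change was 0.30 without LsCK replicate 2. EMS1/MSP1 and PSKR1, receptor kinases for peptides, were at -1.15 (SE 0.56) and -0.31 (SE 0.45), and the CIF precursor, a peptide that in Arabidopsis directs the sealing of the root endodermis, at -2.35 (SE 1.30). PYL4-like (Cluster-15809.8656), an abscisic acid receptor, had 25.2 and 27.2 CPM in LsCv, against 17.4 and 3.52 CPM in LsCK. The LsCv libraries were alike and both above LsCK, but less than 2-fold above LsCK replicate 1.

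The lists drawn from the lettuce descriptions had medians that depended on the LsCK library. Beside the counts of each list stands the share of all tested clusters at an unadjusted p under 0.05, 2.39% higher and 6.35% lower, and the lists come from clusters already chosen for a change. For the 16 tested cell wall clusters the median log2 fold change was -1.47, with 0 higher and 4 lower (25.0%) at an unadjusted p under 0.05, and the median log2 ratio was 0.13 to LsCK replicate 1 and -2.05 to LsCK replicate 2. Among them the endoglucanase 6-like cluster (Cluster-15809.12519), which cuts wall glucans, had 12.6 and 25.7 CPM in LsCv, against 26.1 and 88.2 CPM in LsCK. The 11 clusters listed as wall-sensing and other receptor kinases had 1 higher (9.09%) and 2 lower (18.2%). Their medians were 0.37 to LsCK replicate 1 and -1.97 to LsCK replicate 2. BSK, THESEUS and FERONIA are in this list and also in that of phytohormones. BSK, which passes on a signal and is not named as a receptor, was among the 2 lower. HERK 1 (Cluster-15809.11403), a kinase of the family of FERONIA, was the higher one, with 211 and 144 CPM in LsCv, against 113 and 45.2 CPM in LsCK. In the 31 defence and immune receptor clusters 3 were higher (9.68%) and 5 lower (16.1%), with medians of -0.14 and -1.76 to LsCK replicates 1 and 2. ACCELERATED CELL DEATH 6-like (Cluster-20312.0), a membrane protein of salicylic acid signalling in Arabidopsis, had 7.30 and 7.25 CPM in LsCv, against 11.6 and 35.9 CPM in LsCK. Medians of these 3 lists thus lay between -0.14 and 0.37 against LsCK replicate 1 and between -2.05 and -1.76 against LsCK replicate 2.

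The 19 transcription regulators had 14 positive and 5 negative log2 fold changes, with a median of 0.73. Their medians were -0.10 to LsCK replicate 1 and 2.57 to LsCK replicate 2, so the positive lean was seen against LsCK replicate 2 only. At an unadjusted p under 0.05, 4 were higher (21.1%) and 2 lower (10.5%). GATA transcription factor 1-like (Cluster-12490.0) had 9.74 and 11.9 CPM in LsCv, against 5.68 and 2.75 CPM in LsCK. The factors MYB10-like and the ethylene-responsive factor held as higher and LIGHT-DEPENDENT SHORT HYPOCOTYLS 4-like as lower. Of the 8 hormone response clusters outside the phytohormone list, 0 were higher and 0 lower at that p. The ethylene response sensor 1-like cluster (Cluster-15809.3380), an ethylene receptor, had 199 and 204 CPM in LsCv, against 138 and 40.9 CPM in LsCK. On the log2 scale, PIN-LIKES 7-like (Cluster-15809.12940) and NPY1 (Cluster-15809.73), both linked to auxin, were at 0.99 (SE 0.52) and -1.51 (SE 0.68). Another PIN-LIKES 7 cluster, PILS7 of the phytohormone list (Cluster-4711.0), had the opposite sign to the first, -0.95 (SE 1.81).

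Metabolic lists held clusters of both directions. Of the 16 lipid, cuticle and wax clusters 2 were higher and 2 lower (12.5% each) at an unadjusted p under 0.05. The delta(12) fatty acid desaturase DES8.11-like cluster (Cluster-15809.7209), which adds a double bond to fatty acids, had 477 and 629 CPM in LsCv, against 312 and 132 CPM in LsCK. The GDSL esterase/lipase cluster (Cluster-15341.0) had 2.25 and 2.43 CPM in LsCv, against 4.20 and 8.36 CPM in LsCK. LsCv libraries of both clusters lay outside the range of LsCK but under 2-fold from LsCK replicate 1. Of the 12 phenylpropanoid and terpenoid clusters 1 was higher (8.33%) and 3 lower (25.0%). Germacrene A synthase (Cluster-15809.13635), which starts the sesquiterpene lactones of lettuce latex, had 464 and 249 CPM in LsCv, against 214 and 108 CPM in LsCK (log2 fold change 1.14, SE 0.47). The 3-hydroxy-3-methylglutaryl-coenzyme A reductase 1 cluster (Cluster-15809.9035), of the mevalonate pathway, had 19.6 and 26.2 CPM in LsCv, against 27.8 and 82.1 CPM in LsCK (log2 fold change -1.26, SE 0.51). These enzymes of the terpenoid route therefore stood on opposite sides of LsCK, neither past an adjusted p of 0.05 in edgeR's test (0.568 and 0.565).

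Of the 18 transporters and channels 2 were higher and 2 lower (11.1% each) at an unadjusted p under 0.05. The change held in 0, against 2.16% higher and 4.8% lower of all tested clusters. The ammonium transporter 1 member 1-like cluster (Cluster-15809.10521) had 120 and 85.1 CPM in LsCv, against 61.3 and 22.0 CPM in LsCK (log2 fold change 1.30, SE 0.50). The oligopeptide transporter 3-like cluster (Cluster-20023.0) had 2.21 and 2.23 CPM in LsCv, against 4.51 and 6.83 CPM in LsCK. Aquaporin NIP5-1 (Cluster-15809.4624), a boric acid channel in Arabidopsis, had 12.5 and 6.72 CPM in LsCv, against 14.6 and 67.4 CPM in LsCK, so that LsCv replicate 1 was near LsCK replicate 1. Of the 3 tested cytoskeleton clusters 2 were lower in LsCv at an unadjusted p under 0.05 (66.7%). The share was 6.35% of all tested clusters and 16.7% of the lettuce-described ones, and 3 members are too few to read a direction. The lower clusters were actin-2-like and the tubulin beta chain-like cluster (Cluster-15809.11910, 12.6 and 38.4 CPM in LsCv, against 50.1 and 140 CPM in LsCK). The microtubule protein SPIRAL1-like 5 (Cluster-19070.0) had 0.516 and 0.30 CPM in LsCv, against 0.485 and 2.61 CPM in LsCK, so that the groups overlapped.

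Of 9 clusters chosen for qRT-PCR, 0 were higher and 2 lower (22.2%) at an unadjusted p under 0.05 in edgeR's test. The shares of all tested clusters were 2.39% and 6.35%. The change held in 0 higher and 3 lower clusters (33.3%), against 2.16% and 4.8% of all tested clusters. The study chose these 9 among clusters it called changed on the same libraries, so their counts are not independent evidence. The primers, the only sequences of these clusters in the sources used here, are given 5′ to 3′ for the pair of clusters that the study assigned to the comparison of LsCv with LsCK and in which the change held, in lower case because no base is singled out.
F-box, Cluster-15937.0, forward: gaagccaaggccagttggtt
F-box, Cluster-15937.0, reverse: ccggcccagctttcataagt
anthocyanin malonyltransferase, Cluster-15285.0, forward: tcccaaatatcgccaccacc
anthocyanin malonyltransferase, Cluster-15285.0, reverse: agagtgggggaactcgtaga
The F-box cluster, of the proteins that choose targets for ubiquitin ligases, had 0 and 0 counts in LsCv, against 10 and 15 in LsCK, at least 3.85-fold lower in LsCv. The anthocyanin malonyltransferase cluster, an enzyme that adds malonyl groups to anthocyanins, had 24 and 0 counts in LsCv, against 64 and 42 in LsCK. Few reads stand behind both, and the LsCv libraries disagreed for the malonyltransferase. The FAR1-RELATED SEQUENCE 5-like cluster (Cluster-15809.7654), of a family of transposase-derived transcription factors, had 0.332 and 1.03 CPM in LsCv, against 1.57 and 7.67 CPM in LsCK.

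Among the other clusters of the qRT-PCR set, GH3.1 (Cluster-18508.0), which conjugates auxin to amino acids, had 1.99 and 13.2 CPM in LsCv, against 12.8 and 3.0 CPM in LsCK. The fatty acid synthase-like cluster (Cluster-13343.0) had 0.738 and 6.72 CPM in LsCv, against 3.03 and 0.836 CPM in LsCK. In both, the LsCK values fell between the LsCv values, with log2 fold changes of -0.06 (SE 0.94) and 0.95 (SE 1.09). The arabinogalactan peptide 12-like cluster (Cluster-15809.12921), a small wall glycoprotein, had 65.0 and 66.9 CPM in LsCv, against 40.3 and 193 CPM in LsCK, so that LsCv stood above LsCK replicate 1 and below LsCK replicate 2. Histone H1-like (Cluster-15809.7285), a linker histone, had 229 and 244 CPM in LsCv, against 175 and 310 CPM in LsCK. The inactive beta-amylase 9-like cluster (Cluster-16212.0) had 7.78 and 5.19 CPM in LsCv, against 4.17 and 2.65 CPM in LsCK (log2 fold change 0.93, SE 0.47). It was higher in both LsCv libraries, by less than 2-fold over LsCK replicate 1.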

How the data were processed

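Leaf poly-A RNA of 2 LsCv, 2 LsCK and 2 LsSq libraries was measured. Groups came from the sample titles. The authors called bases with CASAVA 1.8, assembled the reads with Trinity, grouped transcripts with Corset and deposited expected counts, estimated per cluster and library by RSEM and not normalized. RSEM divides reads that fit several transcripts, and 11199 clusters have a fractional count in a library, 24 of the 74 clusters chosen for naming among them. Of the sample columns 0 were left unused. The authors' own fold changes, p-values and qRT-PCR values in the supplementary tables were not used. Those tables gave names, descriptions and primers only, and the list of changed clusters was held in part (1214 clusters). Of the 291 lettuce descriptions 278 give a locus, and 263 of these loci are in the RefSeq gene table of lettuce, whose coordinates were not used because the clusters come from an assembly without a genome.

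Expected counts were rounded, filtered with filterByExpr by group, scaled by TMM (factors 0.836 and 1.03 for LsCv, 0.995 and 1.09 for LsCK) and tested with edgeR 4.0.16 under R 4.3.3 (glmQLFit, glmQLFTest, 1 fit over 6 libraries, prior count 0.125, Benjamini-Hochberg over 28157 clusters, threshold 0.05). The SE is the fold change over the root of F, and DESeq2 1.42.0 was an alternative. Counts of replicates differed beyond sampling noise (chi-square over its degrees of freedom, 162 in LsCv and 194 in LsCK), so each library was counted once. A limit of 3 counts is 0.111 and 0.0998 CPM in the LsCv libraries, against 0.0857 and 0.105 CPM in the LsCK libraries, and covers counting error only. The smallest p that exact two-sided permutation of 4 libraries allows for 1 cluster is 0.333. Scripts were tested on simulated data. Plots were made in matplotlib 3.10.9 (Python 3.11.15).

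Named were the clusters of the study's hormone and qRT-PCR tables, the 3 clusters with the smallest p in each list of descriptions, up to 12 named clusters a direction in which the change held, and by ID the 2 higher and 2 lower clusters with the smallest p. The members, lists and this rule were chosen with earlier results of these data known. Alternatives were DESeq2's size factors, no scaling factors, TMM without the animal-described clusters, a mean of at least 10 counts, no filter, edgeR on the LsCv and LsCK libraries, robust estimation, a block of replicate numbers, DESeq2 on 6 or on 4 libraries, each library left out, a prior count of 2, levels by the LsCv and LsCK libraries, a log2 ratio of at least 1.5, a pseudocount of 1 CPM and an adjusted p of 0.1.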

Additional observations from a re-analysis of the deposited data

How the results depend on the processing

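Clusters past an adjusted p of 0.05 numbered 0 in every edgeR fit, leaving out each library included (0 to 0), and 437 and 225 in DESeq2 on 6 and on 4 libraries. The 2459 clusters under an unadjusted p of 0.05 (672 higher, 1787 lower) became 1469 (341 higher, 1128 lower) with the LsCv and LsCK libraries alone. The higher ones numbered 407 without scaling factors and 1171 in DESeq2 on 6 libraries. With a library left out the total ranged from 1327 (without LsCK replicate 2) to 5394 (without LsCK replicate 1), the higher ones from 328 to 2715 and the lower ones from 876 to 2722. Clusters without overlap ranged from 10292 to 20783, and those that held from 606 to 4068 higher and from 1346 to 4522 lower, where a missing LsCv or LsCK library removes a condition. Clusters that held numbered 218 higher and 559 lower at a log2 ratio of at least 1.5, 199 higher and 379 lower with a pseudocount of 1 CPM, and 1025 higher without a filter. The signed median at 1000 CPM and over ranged from -0.24 (without LsCv replicate 1) to 0.71. At this depth a limit of 3 counts is 0.0857 to 0.111 CPM in a library.

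Replicate numbers are shared between the groups, but no label says that a number marks a box or a batch. The differences between replicates 1 and 2 in LsCv and in LsCK had a Pearson's r of 0.194 across clusters, which are not independent. It was 0.163 for LsCv and LsSq and 0.242 for LsSq and LsCK. With the replicate number as a block 0 clusters passed an adjusted p of 0.05 and 3319 an unadjusted p of 0.05, 1199 higher and 2120 lower.

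Of the named clusters 11 changed sign with a library left out. Their log2 fold changes ranged from -1.39 to 2.18 for the fatty acid synthase-like cluster, -0.072 to 2.71 for B-type ARR, -0.075 to 2.59 for YUCCA10, -2.48 to 0.30 for THESEUS, -1.53 to 0.71 for arabinogalactan peptide 12-like, -1.12 to 0.024 for LOG3, -0.37 to 0.44 for histone H1-like, -6.46 to 2.75 for extensin-2-like, -0.14 to 2.08 for FERONIA, -1.99 to 1.37 for GH3.1 and -3.73 to 4.29 for PILS7. Histone H1-like was at 0.0079 with DESeq2's size factors, 0.034 with the replicate block and 0.0030 in DESeq2 on 6 libraries, against -0.03, and GH3.1 at 0.00197 with DESeq2's size factors, against -0.06. The cause of these changes was not tested.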

Other observations

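Some named clusters stood further apart between replicate numbers than between LsCv and LsCK. Cluster-15809.8681, described as extensin-2-like, a structural wall glycoprotein, had 138 and 3.66 CPM in LsCv replicates 1 and 2, against 655 and 10.6 CPM in LsCK replicates 1 and 2, and 157 and 16.4 CPM in the LsSq replicates. PILS7 (Cluster-4711.0), of the PIN-LIKES auxin carriers, had 11.5 and 0.865 CPM in LsCv, against 23.5 and 0.314 CPM in LsCK, and 4.16 and 0.442 CPM in the LsSq replicates. Replicate 1 was thus the high library in each group for both clusters. EG45-like PNP (Cluster-6996.0), a plant natriuretic peptide, had 23.8 and 2.46 CPM in LsCv, against 3.17 and 0 CPM in LsCK, with the high library again replicate 1, but 0.26 and 1.05 CPM in the LsSq replicates, where replicate 2 was the higher. YUCCA10 (Cluster-14797.0) had 15.4 and 4.13 CPM in LsCv, against 7.28 and 1.64 CPM in LsCK, and 2.25 and 1.53 CPM in the LsSq replicates.

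Across all tested clusters, 3254 differed at least 2-fold between replicates in LsCv and also in LsCK. Replicate 1 was the higher in both groups in 1114 of them, replicate 2 in both groups in 958, and the groups went opposite ways in 1182. In 11 clusters replicate 1 was above replicate 2 by a log2 ratio of at least 5 in both groups. What the replicate numbers share is not given in the sources used here, and its part in these values was not tested.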
